A study of Oryctolagus cuniculus with 39 samples.

Results

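The stromal vascular fraction (SVF) of interscapular brown adipose tissue (iBAT) was compared between New Zealand White rabbits of 6 weeks and of 3 weeks, with 3 bulk RNA-seq libraries per age. These 6 libraries are part of 36 bulk libraries that also cover whole iBAT and the SVF of subscapular brown adipose tissue (sBAT) at day 1, 3, 6 and 12 weeks. Of 20589 genes in the SVF table, 11632 had a deposited FPKM (fragment count of a gene scaled by its length and by the library's mapped fragments) of 1 or more in at least 3 of the 6 libraries, and these were tested. All animals share strain, and no genotype, treatment, sex or pooling is given in the labels. The labels do not say whether the 3 libraries of an age came from separate animals, so p-values measure a spread between libraries that may be technical. For the comparison of ages this spread was pooled over all 12 interscapular SVF libraries, day 1 and 12 weeks included.

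Brown fat burns lipid for heat through the mitochondrial uncoupling protein UCP1 and is prominent in newborn rabbits. In rabbits the depot loses its brown character in the weeks after birth, a process called involution, and fills with unilocular fat cells. The SVF is what remains of a fat depot once the buoyant mature adipocytes are removed: adipocyte progenitors and fibroblasts, blood and lymphatic endothelium, pericytes, immune cells, Schwann cells of the nerves that supply the depot, and cells carried along from blood or nearby muscle.

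The libraries were of similar size at both ages except 3-week replicate 3. Relative depth, estimated from the steps between low FPKM values, was 1.137, 0.986 and 0.624 in the 3-week replicates and 1.133, 1.133 and 1.113 in the 6-week replicates; true read totals are not given in the sources used here. The genes ADORA1 and LOC100009266 took 1.93% to 20.3% of the summed FPKM at 3 weeks and 0.497% to 0.602% at 6 weeks, and values were therefore scaled between libraries by median ratios. Replicates correlated across genes at 0.97 to 0.983 at 3 weeks and 0.949 to 0.976 at 6 weeks. Markers of the labelled fraction were present: the progenitor gene PDGFRA was measured at 32.4, 36.2 and 25.4 at 3 weeks and 42.3, 58.2 and 32.5 at 6 weeks (scaled FPKM, as all levels below), and the endothelial gene PECAM1 at 104, 96.5 and 172 at 3 weeks and 71.1, 60.3 and 194 at 6 weeks. Adipocyte RNA was present too, since ADIPOQ, the adipocyte hormone adiponectin, stood at 509.5, 539 and 646 at 3 weeks and 460.2, 344 and 1224 at 6 weeks. UCP1 was low, at 6.95, 0.53 and 12.3 at 3 weeks and 0.04, 0 and 0 at 6 weeks, and did not pass the filter. The epithelial gene KRT5 was at or near 0 in all 6 libraries.

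By limma with Benjamini-Hochberg adjustment, 1087 of 11632 genes (9.34%) differed between the ages at an adjusted p under 0.05. In all, 605 genes (5.2% of those tested) were higher and 482 (4.14%) lower at 6 weeks, and 101 rose and 118 fell by more than 1 on the log2 scale. The median log2 fold change of all tested genes was 0.01. The count of called members in each gene list below is to be read beside the 9.34% called of all tested genes. The genes that fell most include genes for globins, myelin proteins and adipocyte proteins, and those that rose most include genes for matrix, the urokinase receptor and the clock. Without median ratio scaling, 288 genes were higher and 384 lower, so that the share of calls that were higher was 42.9% in place of 55.7%. Leaving out 1 library at a time gave 215 calls (without 3-week replicate 1) to 646 (without 6-week replicate 3); the counts were 361 and 265 without 3-week replicates 2 and 3 and 363 and 393 without 6-week replicates 1 and 2.

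Of the 12 largest falls and 12 largest rises among named genes with a mean of 10 or more at either age, 21 are shown in the plot of these genes by library. They were chosen to have no overlap between the ages, which held for 35.1% of all tested genes. It held for 1085 called genes, 99.8% of all calls, so a lack of overlap adds nothing to a call below. Fold changes are on the log2(scaled FPKM + 1) scale, which understates the change of low genes, and are given with their standard error. HBZ, annotated as an embryonic globin chain, had 173, 103 and 167 at 3 weeks and 5.74, 9.93 and 1.97 at 6 weeks (log2 fold change -4.59 ± 0.59, adjusted p = 0.00409). ALOX15, a lipoxygenase known from rabbit reticulocytes and from macrophages, had 37.4, 17.9 and 35.3 at 3 weeks and 0.549, 0.183 and 0.172 at 6 weeks (log2 fold change -4.53 ± 0.73, adjusted p = 0.00933). Both genes were low in every 6-week library. Of the tested genes 154, of which 72 were called, passed the filter only through the 3 libraries of 1 age, and for these a difference was built into the filter. ALOX15 passed only through the 3-week libraries, and its call is given as a description. When a library was left out, 3 of the remaining libraries had to reach the filter, so such a gene was not tested without a library of its high age. LYZ, the antibacterial enzyme lysozyme of myeloid cells, had 667, 576 and 511 at 3 weeks and 152, 133 and 86.96 at 6 weeks (log2 fold change -2.26 ± 0.34, adjusted p = 0.00676). ADORA1, an entry listed under the symbol of an adenosine receptor, had 20273, 5672 and 58821 at 3 weeks and 1410.3, 1641 and 1182 at 6 weeks (log2 fold change -3.76 ± 0.73, adjusted p = 0.0152), and its 3-week values spanned more than its 6-week values did. In the sBAT SVF at 3 weeks the entry had 703640, 316012 and 369403, scaled over all 24 SVF libraries. Whether the fragments of this entry came from the receptor gene was not tested. ADORA1 lost its call without 3-week replicate 1 (adjusted p = 0.053).

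**Figure D1:**
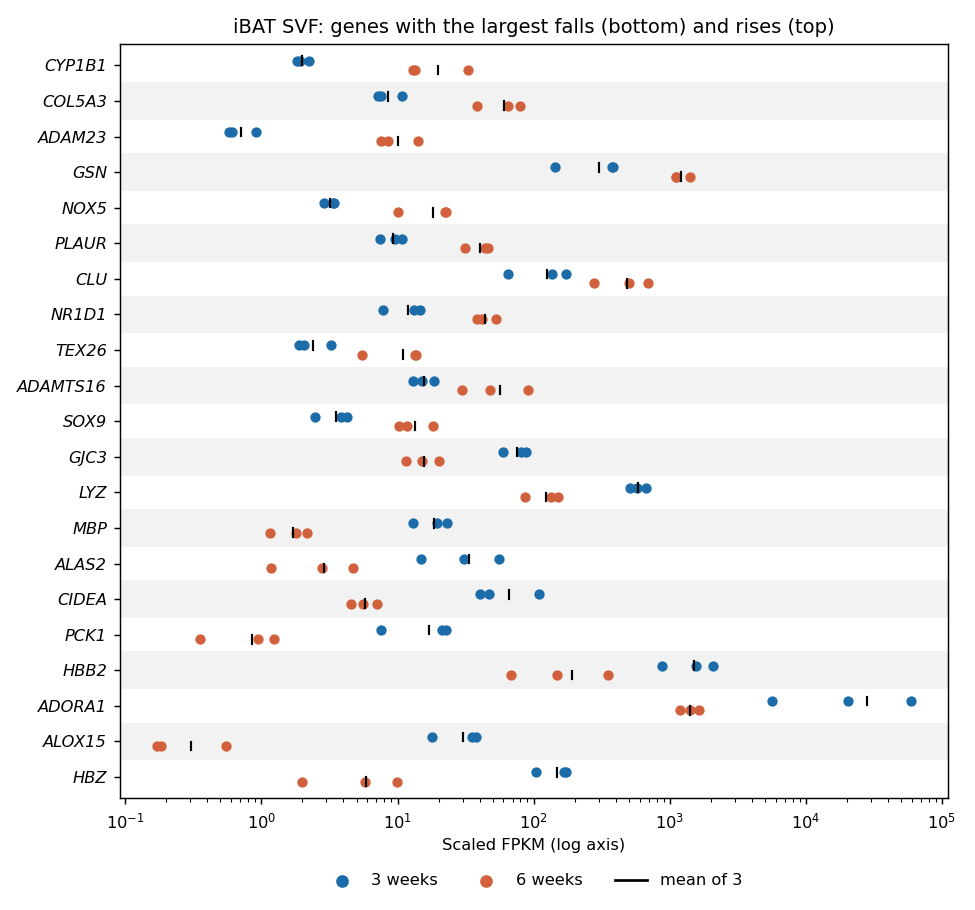
Scaled FPKM (log axis) of 10 of the 12 largest falls and 11 of the 12 largest rises in the 6 interscapular SVF libraries, with blue points for 3 weeks, orange points for 6 weeks and black ticks for the mean of 3. HBZ lies above 100 in each 3-week library and below 10 in each 6-week library, and CYP1B1 below 3 in each 3-week library and above 12 in each 6-week library.

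Among the rises, CYP1B1, a cytochrome P450 that oxidises steroids and other lipids, had 1.84, 2.23 and 1.91 at 3 weeks and 32.95, 13.4 and 12.99 at 6 weeks (log2 fold change 2.67 ± 0.30, adjusted p = 0.00312). COL5A3, a chain of collagen V, had 7.201, 7.52 and 10.8 at 3 weeks and 79.4, 38.2 and 65.01 at 6 weeks (log2 fold change 2.66 ± 0.26, adjusted p = 0.0026). ADAM23, an adhesion protein of the ADAM family, had 0.609, 0.579 and 0.919 at 3 weeks and 14.1, 7.59 and 8.49 at 6 weeks (log2 fold change 2.66 ± 0.34, adjusted p = 0.00409); it passed the filter only through the 6-week libraries. In each of these genes the lowest 6-week library lay well above the highest 3-week library. GSN, the actin-severing protein gelsolin, was abundant at both ages and had 374, 144 and 384 at 3 weeks and 1405, 1103 and 1116 at 6 weeks (log2 fold change 2.12 ± 0.34, adjusted p = 0.0092). SOX9, a transcription factor of cartilage and progenitor cells, had 4.24, 3.85 and 2.49 at 3 weeks and 18.1, 10.2 and 11.8 at 6 weeks (log2 fold change 1.65 ± 0.24, adjusted p = 0.00653). NOX5, a calcium-regulated NADPH oxidase, had 3.33, 3.42 and 2.87 at 3 weeks and 22.3, 22.5 and 10.1 at 6 weeks (log2 fold change 2.12 ± 0.43, adjusted p = 0.0179). TEX26 rose from a mean of 2.39 to 10.9 and ADAMTS16, a secreted metalloprotease, from 15.6 to 56.2. NOX5 lost its call without 3-week replicate 1 or 3 or 6-week replicate 1 or 2 (adjusted p up to 0.0625), and TEX26 lost it without 3-week replicate 1 (adjusted p = 0.052). ADAMTS16 lost its call without 3-week replicate 1, 2 or 3 or 6-week replicate 2 or 3 (adjusted p up to 0.109). Of the 24 genes, 14 were called in all 6 fits that left out 1 library. ALOX15 and ADAM23 were called in the 3 fits that tested them.

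Several genes of Schwann cells, the glia that wrap peripheral nerve fibres, were lower at 6 weeks. Of 12 tested members of this list 5 fell and none rose, all 12 fold changes were negative and their median was -1.23. MBP, which compacts myelin, had 12.9, 19.6 and 22.97 at 3 weeks and 2.14, 1.803 and 1.15 at 6 weeks (log2 fold change -2.83 ± 0.45, adjusted p = 0.00889). Every 3-week library was above every 6-week library, and 99.8% of called genes had no overlap either. S100B, a calcium-binding protein of glia, and PRX, the periaxin of myelinating Schwann cells, also fell. S100B lost its call without 3-week replicate 2 or 3 (adjusted p up to 0.0517). SOX10, the defining marker chosen for these cells, was low and not called. It had 1.36, 1.4 and 2.38 at 3 weeks and 0.79, 0.74 and 1.32 at 6 weeks (log2 fold change -0.47, adjusted p = 0.354). GJC3, a gap junction gene of myelinating glia outside the list, had 80.3, 59.1 and 88.5 at 3 weeks and 20.1, 11.5 and 15.2 at 6 weeks (log2 fold change -2.22 ± 0.33, adjusted p = 0.00653). The summed level of the list lay between 418 and 649.7 at 3 weeks and between 120 and 182 at 6 weeks, and leaving out single libraries gave 4 to 6 called Schwann genes, with 4 without 3-week replicate 2 or 3. In bulk RNA, fewer cells of a type and less RNA per cell cannot be told apart.

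Several genes of mature adipocytes were lower at 6 weeks as well. Of 19 tested members 8 fell and none rose, with a median log2 fold change of -0.95. CIDEA, a lipid droplet protein typical of brown fat cells, had 109.6, 47.1 and 40.3 at 3 weeks and 7.06, 4.58 and 5.62 at 6 weeks (log2 fold change -3.18 ± 0.40, adjusted p = 0.00399). PCK1, the enzyme of glyceroneogenesis, had 22.6, 7.56 and 21.3 at 3 weeks and 0.939, 1.24 and 0.355 at 6 weeks (log2 fold change -3.19 ± 0.53, adjusted p = 0.0104). CIDEC, which fuses lipid droplets, had 25.6, 6.76 and 22.97 at 3 weeks and 2.12, 4.75 and 1.96 at 6 weeks (log2 fold change -2.18 ± 0.43, adjusted p = 0.0164). None of these genes overlapped between the ages, as held for 99.8% of called genes. DGAT2, which makes triglyceride, had 48.3, 19.9 and 54.5 at 3 weeks and 8.28, 13.7 and 7.51 at 6 weeks (log2 fold change -1.87 ± 0.37, adjusted p = 0.0166). The synuclein SNCG had 53.3, 31.01 and 45.6 at 3 weeks and 9.15, 14.1 and 16.3 at 6 weeks (log2 fold change -1.64 ± 0.23, adjusted p = 0.0058), and the hormone LEP, the glycerol enzyme GPD1 and the adipogenic factor CEBPA were the other members that fell. CIDEC lost its call without 3-week replicate 1 or 3 or 6-week replicate 1 (adjusted p up to 0.0636), and DGAT2 lost it without 3-week replicate 1 or 3 or 6-week replicate 1 (adjusted p up to 0.0636). LEP lost its call without 3-week replicate 1, 2 or 3 or 6-week replicate 1 or 2 (adjusted p up to 0.118, and 0.0602 with the replicate block), and GPD1 lost it without 3-week replicate 1 or 3 or 6-week replicate 1, 2 or 3 (adjusted p up to 0.115). CEBPA lost its call without 3-week replicate 1 or 3 or 6-week replicate 2 or 3 (adjusted p up to 0.123, and 0.0557 with the replicate block). ADIPOQ gave a log2 fold change of 0.04 (adjusted p = 0.96), with its highest value in 6-week replicate 3. The summed adipocyte level lay between 5963 and 9282 at 3 weeks and between 2463 and 5064 at 6 weeks; how far remaining adipocytes account for any gene was not tested. Between 3 and 7 adipocyte genes were called when 1 library was left out, with 3 without 3-week replicate 1 or 3.

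Of 14 tested genes of thermogenic brown fat, 4 fell and 1 rose (median -0.02); UCP1 and other defining genes of that list did not pass the filter. Besides CIDEA and S100B, COX7A1 and CKMT2 fell. COX7A1, a cytochrome oxidase subunit of muscle and brown fat, had 12.4, 7.73 and 21.8 at 3 weeks and 4.12, 4.803 and 1.52 at 6 weeks (log2 fold change -1.72 ± 0.44, adjusted p = 0.0359). CKMT2, a mitochondrial creatine kinase, had 1.78, 1.73 and 2.69 at 3 weeks and 0.496, 0.046 and 0.316 at 6 weeks (log2 fold change -1.25 ± 0.28, adjusted p = 0.0245). How far skeletal muscle RNA accounts for the falls of COX7A1 and CKMT2 was not tested. CKMT2 passed the filter only through the 3-week libraries. The member that rose was EBF2, a factor of brown preadipocytes. COX7A1 lost its call without 3-week replicate 1 or 3 or 6-week replicate 1, 2 or 3 (adjusted p up to 0.116, and 0.0596 with the replicate block), and CKMT2 lost it without 6-week replicate 2 (adjusted p = 0.0727, tested in 3 such fits). EBF2 lost its call without 3-week replicate 1, 2 or 3 or 6-week replicate 1 or 2 (adjusted p up to 0.0805). With 1 library left out, 1 to 4 thermogenic genes were called, with 1 without 3-week replicate 3. In fatty acid and triglyceride synthesis, 3 rose and 2 fell of 18 tested members (median log2 fold change -0.12): SREBF1 and INSIG1, regulators of lipid synthesis, and ACACA, which makes malonyl-CoA, rose, and MID1IP1 fell with DGAT2. SREBF1 lost its call without 3-week replicate 1, 2 or 3 or 6-week replicate 2 or 3 (adjusted p up to 0.0945, and 0.0519 with the replicate block), and INSIG1 lost it without 3-week replicate 2 or 3 or 6-week replicate 1, 2 or 3 (adjusted p up to 0.0791). ACACA lost its call whichever of the 6 libraries was left out (adjusted p up to 0.124, and 0.0553 with the replicate block), and MID1IP1 lost it without 3-week replicate 1, 2 or 3 or 6-week replicate 1 or 2 (adjusted p up to 0.148, and 0.0613 with the replicate block). The count of called lipid synthesis genes ran from 0 to 3 when 1 library was left out, with 0 without 3-week replicate 3; the replicate block gave 3 and values as deposited gave 2.

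**Figure D2:**
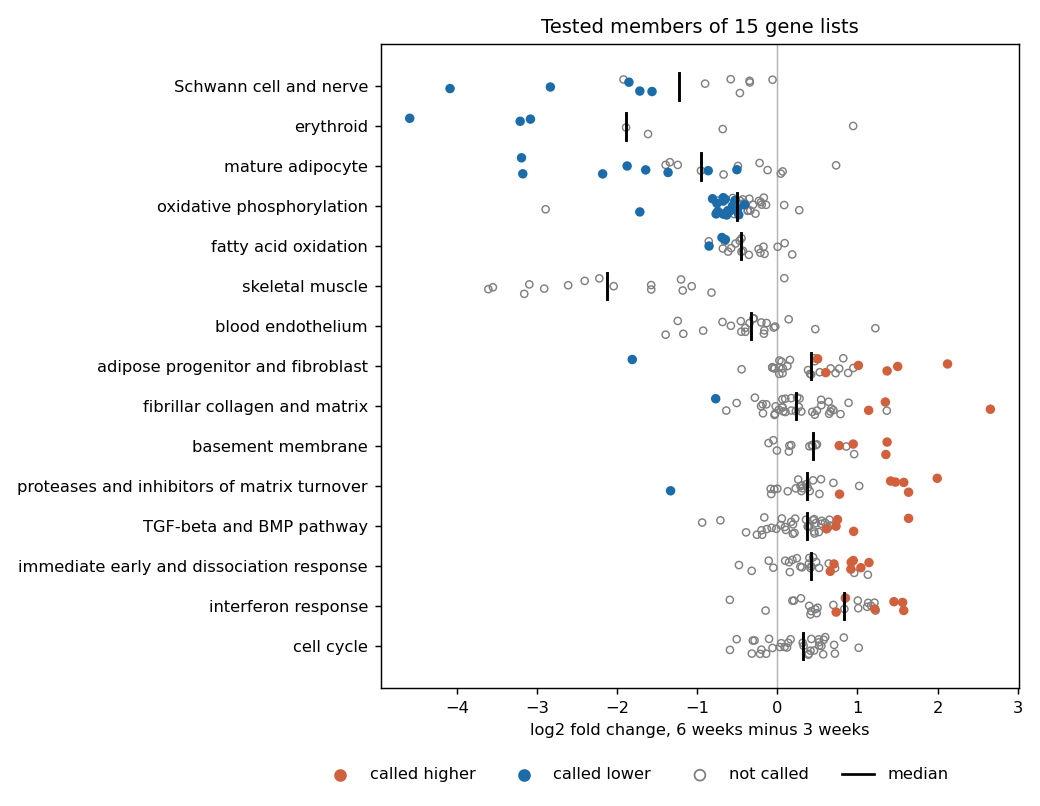
Log2 fold change (6 weeks minus 3 weeks) of the tested members of 15 gene lists, one point per gene, with filled points for genes called higher (orange) or lower (blue), open points for genes not called and a black tick at the median. The called Schwann, erythroid, adipocyte and oxidative phosphorylation genes are all to the left of 0, and the skeletal muscle genes without a call lie to the left in 15 of 16 cases.

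Nuclear genes of oxidative phosphorylation encode subunits of the respiratory chain and ATP synthase. Of 44 tested members 20 fell and none rose, 42 fold changes were negative and the median was -0.50. ATP5O, an ATP synthase subunit, had 161, 162 and 177 at 3 weeks and 106, 86.7 and 92.6 at 6 weeks (log2 fold change -0.81 ± 0.14, adjusted p = 0.0104). NDUFA8, a subunit of complex I, had 39.8, 43.4 and 47.3 at 3 weeks and 25.7, 23.3 and 26.5 at 6 weeks (log2 fold change -0.76 ± 0.14, adjusted p = 0.0137). NDUFA1, also of complex I, had 67.5, 73.8 and 65.3 at 3 weeks and 44.8, 38.03 and 38.6 at 6 weeks (log2 fold change -0.75 ± 0.18, adjusted p = 0.0304). The 6-week values of all of these lay below the 3-week values, and 99.8% of called genes likewise had no overlap. NDUFA8 lost its call without 3-week replicate 3 (adjusted p = 0.0541), and NDUFA1 lost it whichever of the 6 libraries was left out (adjusted p up to 0.0895). The summed level lay between 3093 and 3341 at 3 weeks and between 2228 and 2347 at 6 weeks, with no overlap between the ages. Fits without 1 library called 5 to 11 oxidative phosphorylation genes, with 5 without 3-week replicate 3. Fatty acid oxidation gave this count: 0 rose and 3 fell of 21 tested members (median log2 fold change -0.45), and the members that fell were ETFB and ETFA, which pass electrons to the respiratory chain, and ECHS1, an enzyme of beta-oxidation. The called share of that list was 14.3% beside 9.34% for all genes. ETFB had 36.6, 33.4 and 39.9 at 3 weeks and 18.98, 20.3 and 20.1 at 6 weeks (log2 fold change -0.85 ± 0.12, adjusted p = 0.00554). ETFA lost its call without 3-week replicate 1 or 3 or 6-week replicate 2 or 3 (adjusted p up to 0.0828). When 1 library was left out, 2 to 5 fatty acid oxidation genes were called, with 2 without 3-week replicate 1 or 3 or 6-week replicate 2 or 3.

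**Figure D3:**
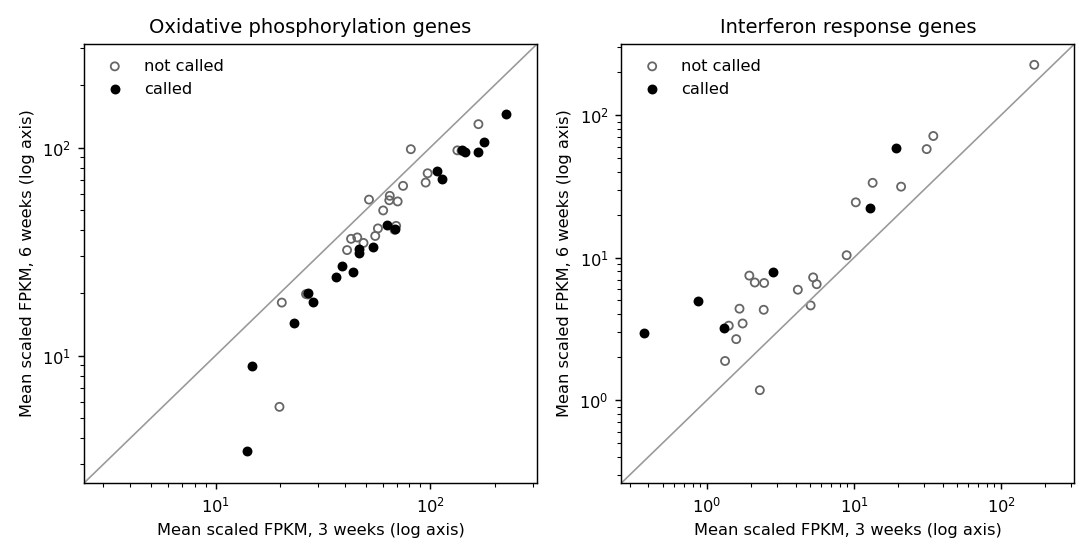
Mean scaled FPKM at 3 weeks (x) against 6 weeks (y), both log axes, for tested genes of oxidative phosphorylation and of the interferon response, with filled points for called genes and the line of equal level in grey. In the first panel 42 of 44 genes had a negative fold change and in the second 25 of 27 had a positive one.

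In glycolysis and the hypoxia response, 1 rose and 3 fell of 26 tested members (median log2 fold change -0.15), a share of 15.4% beside 9.34% for all genes. ALDOC, an aldolase, had 22.95, 13.5 and 24.4 at 3 weeks and 5.203, 6.98 and 5.28 at 6 weeks (log2 fold change -1.61 ± 0.25, adjusted p = 0.00845). LDHA, lactate dehydrogenase, had 107, 87.5 and 98.7 at 3 weeks and 59.8, 49.9 and 60.8 at 6 weeks (log2 fold change -0.77 ± 0.14, adjusted p = 0.0123), and TPI1 fell by 0.55 on the log2 scale. VEGFA, the growth factor of blood vessels, rose, with 29.3, 33.8 and 21.4 at 3 weeks and 65.9, 43.7 and 39.7 at 6 weeks (log2 fold change 0.79 ± 0.20, adjusted p = 0.0342). LDHA lost its call without 3-week replicate 1 (adjusted p = 0.0526), and TPI1 lost it without 3-week replicate 1, 2 or 3 or 6-week replicate 2 or 3 (adjusted p up to 0.146, and 0.0813 with the replicate block). VEGFA lost its call without 3-week replicate 1 or 3 or 6-week replicate 1 or 2 (adjusted p up to 0.108). Leaving out single libraries gave 1 to 3 called glycolysis genes, with 1 without 3-week replicate 1.

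Of 7 tested red cell genes 3 fell and none rose (median -1.89); globin genes have near-identical copies, so their values are uncertain. HBB2, an adult beta globin, had 1562, 880.3 and 2088 at 3 weeks and 148, 353 and 67.7 at 6 weeks (log2 fold change -3.21 ± 0.74, adjusted p = 0.0269). ALAS2, which starts haem synthesis in erythroid cells, had 30.7, 14.8 and 55.4 at 3 weeks and 2.78, 4.701 and 1.17 at 6 weeks (log2 fold change -3.08 ± 0.72, adjusted p = 0.0271). HBZ, annotated as an embryonic chain, was the other member that fell. For all of these genes the ages did not overlap, as for 99.8% of called genes. In the SVF at 12 weeks HBZ averaged 971, HBB2 6259 and ALAS2 81.3, each above its 3-week mean. Whether the fragments listed under HBZ came from an embryonic globin was not tested. HBB2 lost its call without 3-week replicate 1 or 3 or 6-week replicate 1 or 3 (adjusted p up to 0.09), and ALAS2 lost it without 3-week replicate 1 or 3 or 6-week replicate 1 or 3 (adjusted p up to 0.0928). The summed erythroid level lay between 1025 and 2342 at 3 weeks and between 89.1 and 383 at 6 weeks. Between 1 and 3 erythroid genes were called when 1 library was left out, with 1 without 3-week replicate 1 or 3 or 6-week replicate 1 or 3.

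Skeletal muscle genes had lower values at 6 weeks without a call. By limma none of 16 tested members was called (5 had an unadjusted p under 0.05), 15 fold changes were negative and the median was -2.13. ACTA1, skeletal actin, had 205, 144 and 273 at 3 weeks and 61.7, 55.7 and 0.268 at 6 weeks (log2 fold change -3.61 ± 1.95, adjusted p = 0.249). MYL1, a myosin light chain, had 88.3, 72.2 and 85.99 at 3 weeks and 14.3, 20.8 and 0.057 at 6 weeks (log2 fold change -3.55 ± 1.90, adjusted p = 0.246). Replicate 3 at 6 weeks was almost free of both, while the other 6-week libraries were not. The summed level lay between 391 and 673 at 3 weeks and between 11.4 and 148 at 6 weeks, lower in each 6-week library than in any 3-week library, and its part in the other results was not tested. In blood endothelium limma called none of 22 (5 had an unadjusted p under 0.05), 19 fold changes were negative and the median was -0.32, with a summed level between 6326 and 10280 at 3 weeks and between 2549 and 5551 at 6 weeks. FABP4, a fatty acid carrier of capillary endothelium and adipocytes, had 4972, 4252 and 6910.4 at 3 weeks and 2261, 1561 and 3121 at 6 weeks (log2 fold change -1.24 ± 0.47, adjusted p = 0.114). The fatty acid transporter CD36 had 859, 836 and 1236 at 3 weeks and 338, 283 and 508 at 6 weeks (log2 fold change -1.39 ± 0.46, adjusted p = 0.0772). FABP4 and CD36 made up a large part of the summed endothelial level, and how far adipocytes account for their values was not tested. PECAM1, the defining marker chosen for endothelium, gave a log2 fold change of -0.35 (adjusted p = 0.643). With 1 library left out, 0 to 1 endothelial genes were called, with 0 without 3-week replicate 1, 2 or 3 or 6-week replicate 1 or 2.

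In the macrophage list 1 rose and 1 fell of 21 tested members (median log2 fold change 0.16): MARCO, a scavenger receptor, had 5.63, 6.56 and 9.21 at 3 weeks and 0.38, 1.01 and 0.91 at 6 weeks (log2 fold change -2.196 ± 0.35, adjusted p = 0.00862), and CSF1R, the receptor for macrophage growth factor, had 25.8, 29.7 and 20.3 at 3 weeks and 62.2, 51.7 and 32.3 at 6 weeks (log2 fold change 0.89 ± 0.24, adjusted p = 0.0427). MARCO passed the filter only through the 3-week libraries, and the called share of the list, 9.52%, was near the 9.34% of all genes. CSF1R lost its call without 3-week replicate 1, 2 or 3 or 6-week replicate 1 or 2 (adjusted p up to 0.137). The count of called macrophage genes ran from 0 to 3 when 1 library was left out, with 0 without 3-week replicate 1, 2 or 3; values as deposited gave 1. In pericytes 2 rose and 1 fell of 11 tested members (median log2 fold change 0.28): PDGFRB and CSPG4 rose and the potassium channel KCNJ8 fell, with PDGFRB at 39.8, 45.3 and 39.4 at 3 weeks and 76.8, 77.8 and 101 at 6 weeks. KCNJ8 lost its call without 3-week replicate 1 (adjusted p = 0.0631), and CSPG4 lost it whichever of the 6 libraries was left out (adjusted p up to 0.14, and 0.0722 with the replicate block). Fits without 1 library called 1 to 3 pericyte genes, with 1 without 3-week replicate 1. In smooth muscle (median -0.44, 13 negative) 1 of 15 fell, the tropomyosin TPM2 (log2 fold change -1.67 ± 0.44, adjusted p = 0.0401). TPM2 had 215, 277 and 67.1 in the SVF at day 1, where skeletal ACTA1 had 741, 927 and 11.6. In whole iBAT at 3 weeks TPM2 had 25.1, 24.4 and 1200, and ACTA1 0.541, 2.28 and 2113. In the 6-week SVF TPM2 had 35.3, 29.9 and 32.6, and ACTA1 61.7, 55.7 and 0.268. How far skeletal muscle RNA accounts for the fall of TPM2 was not tested. In lymphatic endothelium (median -0.07) 1 of 5 fell, MMRN1 (log2 fold change -1.51 ± 0.42, adjusted p = 0.0449). The called share of the smooth muscle list, 6.67%, lay below the 9.34% of all genes, and that of the lymphatic list, 20%, came from 1 gene. TPM2 lost its call whichever of the 6 libraries was left out (adjusted p up to 0.12, and 0.0665 with the replicate block), and MMRN1 lost it whichever of the 6 libraries was left out (adjusted p up to 0.133, and 0.0721 with the replicate block). When 1 library was left out, 0 to 4 smooth muscle genes were called, with 0 without 3-week replicate 1, 2 or 3 or 6-week replicate 1 or 2; the replicate block gave 0. Each fit without 1 library called 0 lymphatic genes; the replicate block gave 0 and values as deposited gave 0.

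In the dendritic cell list (median log2 fold change -0.37, 3 of 5 negative) 1 of 5 rose, the transcription factor IRF8 (log2 fold change 1.29 ± 0.32, adjusted p = 0.0345), and in the B cell list (median 0.36) 1 of 6 rose, EBF1 (log2 fold change 0.50 ± 0.13, adjusted p = 0.0381), which progenitors of fat also express. IRF8 lost its call without 3-week replicate 1, 2 or 3 or 6-week replicate 1 or 3 (adjusted p up to 0.0948, and 0.0519 with the replicate block), and EBF1 lost it without 3-week replicate 1 or 3 or 6-week replicate 1, 2 or 3 (adjusted p up to 0.128, and 0.0596 with the replicate block). By limma no member was called among T and NK cell (4 tested), neutrophil (11), mast cell (3), platelet (1) and mesothelial or epithelial (3) genes, and 0, 1, 0, 0 and 1 of them had an unadjusted p under 0.05. CCR7, a lymphocyte chemokine receptor, had 1.93, 3.25 and 2.32 at 3 weeks and 1.87, 0.993 and 2.33 at 6 weeks, and TCF7, a T cell factor, 1.11, 0.899 and 2.03 at 3 weeks and 0.982, 1.44 and 1.897 at 6 weeks. S100A9 and S100A8, calcium-binding proteins of neutrophils, reached 20.8 and 33.3 in 6-week replicate 2 and less in the other 6-week libraries. GATA2 and KIT gave adjusted p = 0.971 and 0.595, ITGA2B 0.384, and KRT10 and KRT7 0.535 and 0.0647. The neutrophil list had 1 call without 6-week replicate 2, and dendritic and B cell genes had 0 or 1.

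Adipose progenitors and fibroblasts build the stroma and give rise to new adipocytes. Of 32 tested members 6 rose and 1 fell, 26 fold changes were positive and the median was 0.42. CD248, endosialin of stromal progenitors, had 132, 199 and 139 at 3 weeks and 398, 536 and 393 at 6 weeks (log2 fold change 1.502 ± 0.23, adjusted p = 0.00832). COL15A1, a collagen of basement membranes and progenitors, had 28.9, 21.8 and 49 at 3 weeks and 82.8, 56.7 and 121 at 6 weeks (log2 fold change 1.37 ± 0.36, adjusted p = 0.0412). GSN, PDGFRB, EBF2 and EBF1 were the other members that rose. GPC3, a cell surface proteoglycan of growing tissue, had 59.5, 58.3 and 46.1 at 3 weeks and 18.5, 23.9 and 7.07 at 6 weeks (log2 fold change -1.81 ± 0.33, adjusted p = 0.0121). COL15A1 lost its call without 3-week replicate 1 or 2 or 6-week replicate 1 or 3 (adjusted p up to 0.124, and 0.0568 with the replicate block). Between 4 and 5 progenitor genes were called when 1 library was left out, with 4 without 3-week replicate 1 or 6-week replicate 1. The summed level of the list lay between 11340 and 14980 at 3 weeks and between 13080 and 20400 at 6 weeks.

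Among genes of the fibrillar matrix, 3 rose and 1 fell of 41 tested members (median log2 fold change 0.23), a share of 9.76% beside 9.34% for all genes. COL6A3, a chain of collagen VI, had 110.3, 119 and 83.9 at 3 weeks and 257, 299 and 242 at 6 weeks (log2 fold change 1.35 ± 0.20, adjusted p = 0.00676). FBN1, the microfibril protein fibrillin, had 286, 305 and 172 at 3 weeks and 541, 579 and 515 at 6 weeks (log2 fold change 1.14 ± 0.26, adjusted p = 0.0269). COL11A1 fell from low levels, with 1.35, 1.95 and 1.38 at 3 weeks and 0.422, 0.262 and 0.853 at 6 weeks (log2 fold change -0.77 ± 0.18, adjusted p = 0.0269); it passed the filter only through the 3-week libraries. FBN1 lost its call without 3-week replicate 1 or 3 or 6-week replicate 1 or 2 (adjusted p up to 0.0887), and COL11A1 lost it without 6-week replicate 1 or 2 (adjusted p up to 0.0793, tested in 3 such fits). With 1 library left out, 2 to 7 fibrillar matrix genes were called, with 2 without 3-week replicate 1 or 3 or 6-week replicate 1 or 2; the replicate block gave 8. In the basement membrane list 4 of 17 rose and none fell (median 0.44). HSPG2, perlecan, had 67.98, 71.6 and 79.9 at 3 weeks and 168, 189 and 210.5 at 6 weeks (log2 fold change 1.35 ± 0.23, adjusted p = 0.0104), and NID1, nidogen, had 223, 241 and 209 at 3 weeks and 369, 389 and 393 at 6 weeks (log2 fold change 0.77 ± 0.13, adjusted p = 0.0105). AGRN, agrin, rose from low levels (log2 fold change 0.95 ± 0.23, adjusted p = 0.0309). AGRN lost its call whichever of the 6 libraries was left out (adjusted p up to 0.0956). The count of called basement membrane genes ran from 2 to 3 when 1 library was left out, with 2 without 3-week replicate 1 or 2 or 6-week replicate 1 or 3; values as deposited gave 2. Of 15 matricellular genes, with a median log2 fold change of -0.07 and 8 negative, 1 rose, a share of 6.67% beside 9.34% for all genes: THBS2, a thrombospondin, with 27.6, 28.2 and 19.9 at 3 weeks and 82.97, 60.001 and 65.96 at 6 weeks (log2 fold change 1.43 ± 0.20, adjusted p = 0.00653).

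Of 26 tested proteases and inhibitors of matrix turnover 6 rose and 1 fell, with a median of 0.37. PLAUR, the urokinase receptor, had 9.65, 10.8 and 7.47 at 3 weeks and 45.8, 31.2 and 43.9 at 6 weeks (log2 fold change 1.996 ± 0.23, adjusted p = 0.00335). It was higher in each 6-week library than in any 3-week library, and 99.8% of called genes had no overlap either. ADAMTS4, an aggrecan-cleaving protease, had 16.2, 11.8 and 17.7 at 3 weeks and 54.2, 25.1 and 75.3 at 6 weeks (log2 fold change 1.58 ± 0.31, adjusted p = 0.0166), and ADAM19 had 2.88, 3.94 and 4.03 at 3 weeks and 16.4, 9.62 and 10.2 at 6 weeks (log2 fold change 1.47 ± 0.18, adjusted p = 0.00371). ADAM12 and the inhibitor TIMP3 also rose, and the inhibitor TIMP4 fell. ADAMTS4 lost its call without 3-week replicate 1 or 2 or 6-week replicate 1 (adjusted p up to 0.0567), and TIMP3 lost it whichever of the 6 libraries was left out (adjusted p up to 0.134). TIMP4 lost its call without 3-week replicate 1 or 3 or 6-week replicate 1, 2 or 3 (adjusted p up to 0.151, and 0.0703 with the replicate block). Fits without 1 library called 4 to 6 matrix turnover genes, with 4 without 3-week replicate 1 or 6-week replicate 1.

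Among genes of postnatal growth and imprinting, 1 rose and 2 fell of 18 tested members (median log2 fold change 0.13), a share of 16.7% beside 9.34% for all genes. IGF2BP2, an RNA-binding protein of growing tissue, had 6.27, 6.46 and 4.33 at 3 weeks and 1.03, 1.42 and 0.671 at 6 weeks (log2 fold change -1.71 ± 0.19, adjusted p = 0.00312). IGF2R, which clears the growth factor IGF2, had 8.01, 10.1 and 7.501 at 3 weeks and 18.998, 16.8 and 22.6 at 6 weeks (log2 fold change 1.102 ± 0.19, adjusted p = 0.0113). GPC3 was the other that fell. Each fit without 1 library called 3 growth genes. Of 9 genes of the IGF axis (median log2 fold change -0.27, 7 negative) 1 rose, the binding protein IGFBP5, with 209.8, 162 and 214 at 3 weeks and 808, 531 and 419 at 6 weeks (log2 fold change 1.54 ± 0.28, adjusted p = 0.0122). The called share of the IGF axis, 11.1%, was near the 9.34% of all genes. Leaving out single libraries gave 1 to 3 called IGF axis genes, with 1 without 3-week replicate 1, 2 or 3 or 6-week replicate 1 or 2; the replicate block gave 2.

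In WNT signalling, 3 rose and 2 fell of 32 tested members (median log2 fold change 0.20), a share of 15.6% beside 9.34% for all genes. The secreted inhibitors SFRP5 and SFRP1 fell: SFRP5 had 4.27, 2.696 and 3.81 at 3 weeks and 0.391, 0.445 and 0.278 at 6 weeks (log2 fold change -1.73 ± 0.21, adjusted p = 0.00362) and SFRP1 4.56, 7.68 and 5.41 at 3 weeks and 2.77, 2.17 and 2.92 at 6 weeks (log2 fold change -0.91 ± 0.18, adjusted p = 0.0151). SFRP5 passed the filter only through the 3-week libraries. The receptors FZD7, ROR2 and LRP6 rose, with ROR2 at 3.43, 4.57 and 3.85 at 3 weeks and 9.33, 6.65 and 7.21 at 6 weeks (log2 fold change 0.81 ± 0.14, adjusted p = 0.0105). FZD7 lost its call without 3-week replicate 1 or 3 or 6-week replicate 1 or 3 (adjusted p up to 0.0691), and LRP6 lost it whichever of the 6 libraries was left out (adjusted p up to 0.13, and 0.0597 with the replicate block). Between 2 and 4 WNT genes were called when 1 library was left out, with 2 without 3-week replicate 1 or 3. In the TGF-beta and BMP pathway 5 of 40 rose and none fell (median 0.37), a share of 12.5% beside 9.34% for all genes. TGFB2, a ligand, had 15.5, 14.97 and 17.7 at 3 weeks and 32.9, 26.7 and 24.03 at 6 weeks (log2 fold change 0.75 ± 0.15, adjusted p = 0.0175). BMPR2, a BMP receptor, had 10.5, 9.72 and 10.8 at 3 weeks and 16.4, 17.7 and 19.7 at 6 weeks (log2 fold change 0.73 ± 0.14, adjusted p = 0.0137). SMAD3, a signal transducer, and ID4, a BMP-induced inhibitor of transcription factors, also rose. TGFB2 lost its call without 3-week replicate 1 or 2 or 6-week replicate 1 (adjusted p up to 0.0631), and BMPR2 lost it without 3-week replicate 1 (adjusted p = 0.0503). SMAD3 lost its call without 3-week replicate 1 or 3 or 6-week replicate 1, 2 or 3 (adjusted p up to 0.158), and ID4 lost it without 3-week replicate 1, 2 or 3 or 6-week replicate 1 or 3 (adjusted p up to 0.126, and 0.0631 with the replicate block). With 1 library left out, 1 to 5 TGF-beta and BMP genes were called, with 1 without 3-week replicate 1; values as deposited gave 3.

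Of 29 immediate early genes, which respond within minutes to signals and to tissue dissociation, 7 rose and none fell (median 0.42). ZFP36, which destabilises cytokine mRNA, had 437, 509 and 533 at 3 weeks and 1129, 1306 and 870.1 at 6 weeks (log2 fold change 1.14 ± 0.21, adjusted p = 0.0123). FOSL2, an AP-1 subunit, had 35.2, 39.8 and 33.5 at 3 weeks and 75.3, 63.2 and 90.1 at 6 weeks (log2 fold change 1.04 ± 0.18, adjusted p = 0.0106). NR4A3, SOCS3, DUSP5, MYC and KLF4 were the others. ZFP36 lost its call without 3-week replicate 1 (adjusted p = 0.052), and NR4A3 lost it without 3-week replicate 1 or 3 or 6-week replicate 1 or 3 (adjusted p up to 0.0923). SOCS3 lost its call without 3-week replicate 1 or 2 or 6-week replicate 1 or 2 (adjusted p up to 0.0754), and DUSP5 lost it without 3-week replicate 1, 2 or 3 or 6-week replicate 1 or 2 (adjusted p up to 0.0887). MYC lost its call without 3-week replicate 1 or 3 or 6-week replicate 1 (adjusted p up to 0.0619), and KLF4 lost it whichever of the 6 libraries was left out (adjusted p up to 0.136, and 0.0696 with the replicate block). The count of called immediate early genes ran from 1 to 5 when 1 library was left out, with 1 without 3-week replicate 1. The list's summed level lay between 7366 and 7909 at 3 weeks and between 9218 and 11030 at 6 weeks, and the part of dissociation in any result was not tested.

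In the interferon response 6 of 27 rose and none fell, 25 fold changes were positive and the median was 0.84. CXCL10, a chemokine, had 14.2, 23.4 and 19.97 at 3 weeks and 54.5, 44.998 and 77.8 at 6 weeks (log2 fold change 1.56 ± 0.40, adjusted p = 0.037). USP18, which removes the ubiquitin-like ISG15, had 0.843, 0.869 and 0.887 at 3 weeks and 2.71, 8.11 and 4.11 at 6 weeks (log2 fold change 1.58 ± 0.42, adjusted p = 0.042). OAS2, a sensor of viral RNA, had 0.315, 0.34 and 0.47 at 3 weeks and 2.31, 4.76 and 1.802 at 6 weeks (log2 fold change 1.46 ± 0.38, adjusted p = 0.0389). USP18 and OAS2, 2 of the 6 that rose, passed the filter only through the 6-week libraries. All 3-week values of these genes lay below the 6-week values, and 99.8% of called genes likewise had no overlap. IRF7, a factor that drives interferon genes, had 2.499, 2.48 and 3.46 at 3 weeks and 6.36, 8.45 and 8.79 at 6 weeks (log2 fold change 1.22 ± 0.34, adjusted p = 0.0484). HERC6 also rose. CXCL10 lost its call whichever of the 6 libraries was left out (adjusted p up to 0.119), and USP18 lost it in each of the 3 fits without 1 library that tested it (adjusted p up to 0.111, and 0.055 with the replicate block). OAS2 lost its call in each of the 3 fits without 1 library that tested it (adjusted p up to 0.108, and 0.0618 with the replicate block), and IRF7 lost it whichever of the 6 libraries was left out (adjusted p up to 0.131, and 0.0654 with the replicate block). HERC6 lost its call without 3-week replicate 1, 2 or 3 or 6-week replicate 2 or 3 (adjusted p up to 0.0829). Fits without 1 library called 0 to 1 interferon genes, with 0 without 3-week replicate 1, 2 or 3 or 6-week replicate 2 or 3; values as deposited gave 0. Of 30 cytokines and chemokines 3 rose, a share near that of all genes (median log2 fold change 0.10, 13 negative): CSF1, the macrophage growth factor, with 32.9, 34.3 and 25.9 at 3 weeks and 64.8, 74.5 and 57.9 at 6 weeks (log2 fold change 1.06 ± 0.20, adjusted p = 0.0137), the cytokine LIF and the inhibitor TNFAIP3. CSF1 lost its call without 3-week replicate 3 (adjusted p = 0.0529), and LIF lost it without 3-week replicate 1 or 3 or 6-week replicate 1 or 2 (adjusted p up to 0.105). TNFAIP3 lost its call without 3-week replicate 1, 2 or 3 or 6-week replicate 1 or 2 (adjusted p up to 0.0829). When 1 library was left out, 0 to 3 cytokine genes were called, with 0 without 3-week replicate 3. Among complement genes 2 rose and 1 fell of 18 tested members (median log2 fold change 0.15): CLU, the chaperone clusterin, had 136, 64.98 and 173 at 3 weeks and 686, 497 and 275 at 6 weeks (log2 fold change 1.97 ± 0.44, adjusted p = 0.0245), the receptor C3AR1 rose from low levels, having passed the filter only through the 6-week libraries, and the inhibitor CD59 fell. CLU lost its call without 3-week replicate 1 or 2 or 6-week replicate 1 or 2 (adjusted p up to 0.0757), and C3AR1 lost it in each of the 3 fits without 1 library that tested it (adjusted p up to 0.103, and 0.0596 with the replicate block). CD59 lost its call without 3-week replicate 1, 2 or 3 or 6-week replicate 1 or 3 (adjusted p up to 0.0874). Leaving out single libraries gave 0 to 2 called complement genes, with 0 without 3-week replicate 1 or 6-week replicate 1.

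Among enzymes and regulators of steroid and lipid hormones, 3 rose and 3 fell of 20 tested members (median log2 fold change 0.08). The called share of that list was 30% beside 9.34% for all genes. TSC22D3, a glucocorticoid-induced gene, had 121, 102 and 104 at 3 weeks and 41.6, 45.3 and 58.9 at 6 weeks (log2 fold change -1.16 ± 0.17, adjusted p = 0.00653). CYP7B1, an oxysterol hydroxylase, had 6.43, 4.81 and 5.91 at 3 weeks and 19.3, 11.4 and 11.97 at 6 weeks (log2 fold change 1.15 ± 0.20, adjusted p = 0.0105). The glucocorticoid receptor NR3C1 rose with CYP1B1 and CYP7B1, and HSD17B11 fell with ALOX15 and TSC22D3. Of these, ALOX15 passed the filter only through the 3-week libraries, so its difference was built into the filter. NR3C1 lost its call without 3-week replicate 1 or 2 or 6-week replicate 1 or 2 (adjusted p up to 0.0848), and HSD17B11 lost it without 3-week replicate 1, 2 or 3 or 6-week replicate 2 or 3 (adjusted p up to 0.121, and 0.0602 with the replicate block). Between 3 and 6 steroid genes were called when 1 library was left out, with 3 without 3-week replicate 1 or 2. In the circadian clock 2 rose and 1 fell of 16 tested members (median log2 fold change 0.40). NR1D1, a clock repressor, had 7.88, 14.6 and 13.1 at 3 weeks and 41.9, 52.5 and 38.2 at 6 weeks (log2 fold change 1.84 ± 0.27, adjusted p = 0.00653), CLOCK, its activator, rose, and CRY1, another repressor, had 10.6, 5.67 and 8.88 at 3 weeks and 3.71, 1.403 and 3.66 at 6 weeks (log2 fold change -1.28 ± 0.32, adjusted p = 0.0341). CLOCK lost its call without 3-week replicate 3 (adjusted p = 0.058), and CRY1 lost it without 3-week replicate 1 or 3 or 6-week replicate 1 or 2 (adjusted p up to 0.113). With 1 library left out, 1 to 4 clock genes were called, with 1 without 3-week replicate 3. The hour of collection is not given in the sources used here.

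Of 19 retinoid genes (median 0.02) 1 fell, the receptor RXRG (log2 fold change -1.06 ± 0.23, adjusted p = 0.0218), which passed the filter only through the 3-week libraries, of 26 HOX and patterning genes (median 0.06) 1 rose, TBX18 (log2 fold change 0.67 ± 0.18, adjusted p = 0.0421), and of 27 heat shock and unfolded protein genes (median -0.09) BAG3 rose and HERPUD1 fell. The called shares of these lists, 5.26%, 3.85% and 7.41%, lay below the 9.34% of all genes. RXRG lost its call without 6-week replicate 1 (adjusted p = 0.0626, tested in 3 such fits), and TBX18 lost it whichever of the 6 libraries was left out (adjusted p up to 0.125, and 0.0721 with the replicate block). BAG3 lost its call without 3-week replicate 1 or 3 or 6-week replicate 1 or 3 (adjusted p up to 0.0897), and HERPUD1 lost it whichever of the 6 libraries was left out (adjusted p up to 0.142, and 0.0658 with the replicate block). The count of called retinoid genes ran from 0 to 2 when 1 library was left out, with 0 without 3-week replicate 1, 2 or 3 or 6-week replicate 1. Fits without 1 library called 0 to 1 heat shock genes, with 0 without 3-week replicate 1 or 3 or 6-week replicate 1 or 3; values as deposited gave 1. None of 34 cell cycle genes (median 0.32) or 18 cholesterol genes (median 0.11) was called by limma, and 6 and 4 had an unadjusted p under 0.05. PCNA, the replication clamp, had 52.2, 48.1 and 56.6 at 3 weeks and 38.3, 35.1 and 55.1 at 6 weeks, and RRM2, a nucleotide enzyme of dividing cells, 9.52, 12.2 and 11.3 at 3 weeks and 9.46, 8.39 and 21.2 at 6 weeks. HSD17B7 and SC5D gave adjusted p = 0.189 and 0.828. When 1 library was left out, 0 to 3 cell cycle genes were called, with 0 without 3-week replicate 1, 2 or 3 or 6-week replicate 1 or 2. In a list added after the data were seen, 13 of 71 ribosomal protein genes fell and 1 rose (median -0.38, 62 negative). RPS6 had 157, 218 and 129.5 at 3 weeks and 60.03, 35.1 and 40.7 at 6 weeks (log2 fold change -1.88 ± 0.49, adjusted p = 0.0399). RPS6 lost its call whichever of the 6 libraries was left out (adjusted p up to 0.114, and 0.0596 with the replicate block). These genes have near-identical copies, so their values are uncertain. Leaving out single libraries gave 3 to 6 called ribosomal protein genes, with 3 without 3-week replicate 1, 2 or 3 or 6-week replicate 2; the replicate block gave 5.

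Levels at the other ages and in whole iBAT are set beside these changes as a description; the 2 tables were scaled separately. MBP averaged 22.5 in the interscapular SVF at day 1 and 6.01 at 12 weeks, and had 18.2, 17.2 and 6.39 at 3 weeks and 6.51, 50.4 and 20.9 at 6 weeks in whole iBAT, where the ages overlapped. GJC3 in whole iBAT had 24.1, 35.3 and 36.2 at 3 weeks and 12.8, 14.7 and 8.01 at 6 weeks, with no overlap. CIDEA averaged 5.61 in the SVF at day 1 and 52.03 at 12 weeks, so its 6-week level was near that of day 1. In whole iBAT CIDEA had 943, 2062 and 1557 at 3 weeks and 1262, 1238 and 1326 at 6 weeks, where the ages overlapped. SNCG had 347, 546 and 211 at 3 weeks and 2025, 2228 and 2266 at 6 weeks in whole iBAT, higher at 6 weeks, where the SVF was lower. COL5A3 was also higher at 6 weeks in whole iBAT, with 30.3, 33.3 and 21.9 and 73.4, 84.4 and 60.9. Its SVF level at day 1, 79.7, was above that of 3 weeks. ALOX15 in whole iBAT went from a mean of 33.2 to 0.311. HBZ averaged 971 in the SVF at 12 weeks, above its 3-week mean of 148. NOX5 averaged 103 at 12 weeks, above every 6-week value. ADAMTS16 and NR1D1 averaged 72.7 and 48.4 in the SVF at 12 weeks, above their 6-week means of 56.2 and 44.2. CYP1B1, COL5A3, ADAM23, TEX26 and SOX9 averaged 2.9, 14.6, 4.34, 2.04 and 3.99 at 12 weeks, each below every 6-week value of its gene. GSN, PLAUR and CLU averaged 945, 30.2 and 405 at 12 weeks, below their 6-week means of 1208, 40.3 and 486.

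**Figure D4:**
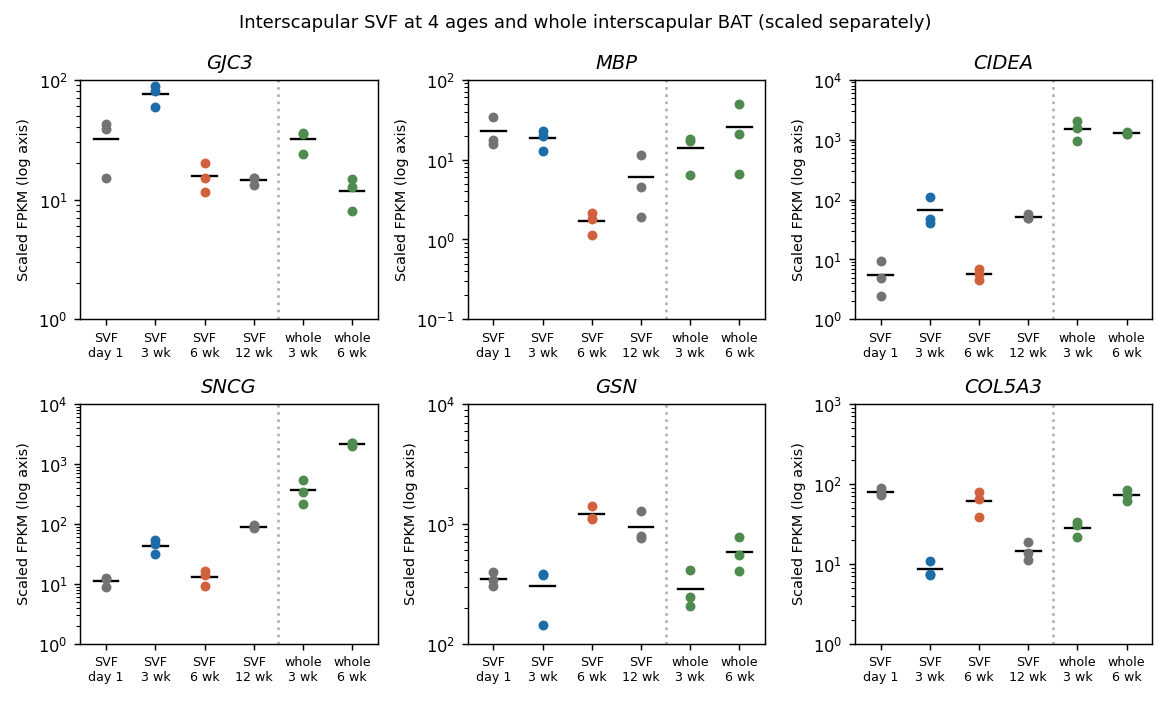
Scaled FPKM (log axes) of GJC3, MBP, CIDEA, SNCG, GSN and COL5A3 in interscapular SVF at 4 ages and, right of the dotted line, in whole interscapular tissue at 3 and 6 weeks, with 3 libraries per group and black bars for their mean. In the SVF, GJC3, MBP, CIDEA and SNCG are lower at 6 than at 3 weeks in every library, while SNCG is higher at 6 weeks in whole tissue.

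Whether the change with age differed between depots was tested as the interscapular minus the subscapular change, over 24 SVF libraries. By limma 50 of the same 11632 genes (0.43%) differed, 25 (0.215%) in each direction, and 1709 had an unadjusted p under 0.05; 19 of the 50 were also called in the interscapular comparison. PLAUR rose in the interscapular SVF, and in sBAT it had 19.03, 28.95 and 16.2 at 3 weeks and 13.3, 9.24 and 11.9 at 6 weeks (difference of log2 changes 2.82 ± 0.34, adjusted p = 0.000295). RN18S, listed under the symbol of ribosomal RNA, was level in the interscapular SVF and had 861, 538 and 769 at 3 weeks and 131, 248 and 99.7 at 6 weeks in sBAT (2.27 ± 0.37, adjusted p = 0.0118). HBZ had 31.97, 63.97 and 41.05 at 3 weeks and 41.6, 76.4 and 32.1 at 6 weeks in sBAT (-4.64 ± 0.89, adjusted p = 0.0386), and SNCG 12.2, 6.54 and 6.72 at 3 weeks and 8.78, 56.6 and 14.4 at 6 weeks (-2.79 ± 0.60, adjusted p = 0.0469). Of these, PLAUR and RN18S were called in every fit without 1 library and with the replicate block, and HBZ and SNCG were not. CEBPB, an adipogenic transcription factor, rose in the interscapular SVF (log2 fold change 0.61 ± 0.17, adjusted p = 0.0459). CEBPB lost its call whichever of the 6 libraries was left out (adjusted p up to 0.147, and 0.0784 with the replicate block). With the replicate block 10 genes were called in all. Leaving out 1 library gave 6 (without interscapular 3-week replicate 1 or subscapular 6-week replicate 3) to 1031 (without subscapular 3-week replicate 3); the counts were 10 and 13 without interscapular 3-week replicates 2 and 3, 10, 10 and 13 without interscapular 6-week replicates 1, 2 and 3, 84 and 144 without subscapular 3-week replicates 1 and 2, and 13 without subscapular 6-week replicate 1 or 2. With upper quartile scaling the split was 14 higher and 28 lower. On values as deposited, where the median difference of all genes was -1.25, it was 6 and 9316. The scale factors were 0.31, 0.522 and 0.517 in the subscapular 3-week replicates and 1.331, 1.156 and 1.224 in the 6-week ones. In those 3-week replicates ADORA1 stood at 316012 to 703640. Every difference between depots given here rests on these libraries and their scaling. MBP in sBAT had a mean of 36.4 at 3 weeks and 3.13 at 6 weeks.

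**Figure D5:**
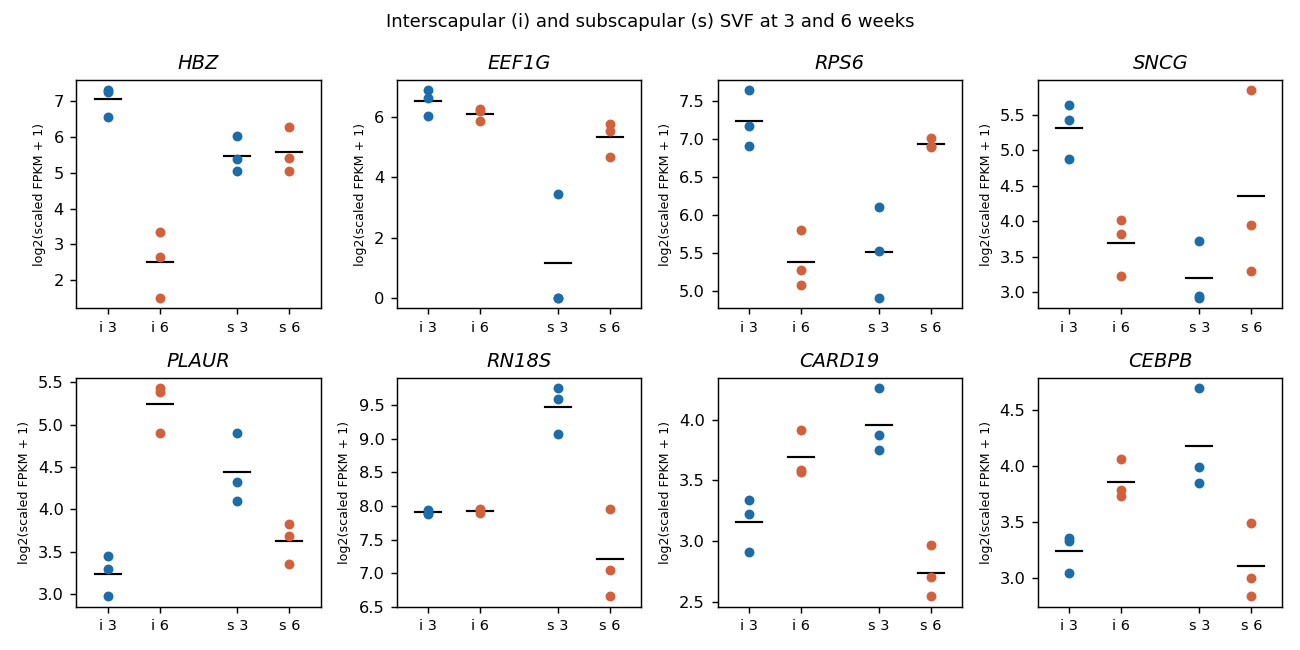
Log2(scaled FPKM + 1) of the 8 genes with the largest difference between depots in their change with age, for interscapular (i) and subscapular (s) SVF at 3 weeks (blue) and 6 weeks (orange), 3 libraries each with the mean as a black bar. PLAUR is higher at 6 weeks in each interscapular library and lower in each subscapular one.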

How the data were processed

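The deposited tables give FPKM per gene and library; per the submitters' processing notes, HISAT2 2.0.4, Bowtie2 2.2.5 and DESeq2 were used with build OryCun2.0, without their roles. The quantifier, its annotation and its use of strand are not given in the sources used here. Gene symbols are those of the file; 595 placeholder symbols were replaced through RefSeq identifiers (assembly mOryCun1.1, names only).

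Genes with a deposited FPKM of 1 or more in at least 3 of the 6 libraries were kept. Libraries were scaled by median ratios, and log2(scaled FPKM + 1) was fitted with limma 3.58.1 (R 4.3.3) over the 12 interscapular SVF libraries, with 1 mean per age and a variance trend. Tests were two-sided, with Benjamini-Hochberg adjustment over all 11632 genes and a call at an adjusted p under 0.05. The difference between depots was a contrast in a fit of 24 SVF libraries. The subscapular libraries were left out of the main fit because a few genes held most of the FPKM in some of them. FPKM is not a count, so no count model was used, and share-based values shift when a few genes take a large part of a library. The fit was also run on simulated data with known changes. Noise there was drawn independently for each gene and library, so that run cannot show how shifts shared by many genes of a library affect the calls.

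Replicate numbers are shared between ages. Deviations of same-numbered libraries of 3 and 6 weeks correlated at 0.23, 0.19 and 0.38, and those of different-numbered libraries at -0.29 to 0.15. Deviations from a mean of 3 libraries depend on each other, so these values cannot settle whether the libraries are paired. A pairing by number would rest on the data and not on the labels. The main fit therefore had no block, and the block by number is one of the alternatives.

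The members and the 41 gene lists were chosen with earlier results of these data known; a list of ribosomal proteins was added after the data were seen. Genes named are the 12 largest rises and falls that had a symbol, were called, reached a mean of 10 at 3 or 6 weeks and did not overlap between these ages, up to 4 called members with the largest change per list (2 with the highest mean where none was called), and 4 genes in each direction for the difference between depots. Defining markers and the other called members of short lists were named after their values were seen. Some genes that these rules chose are not reported here, but counts and medians include them. Alternatives covered the pseudocount, the filter, the scaling, the libraries in the fit, the variance model, weights, the replicate block and leaving out each library.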

Additional observations from a re-analysis of the deposited data

Results flagged for a closer look

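In 8 named genes the change from 3 to 6 weeks differed between the interscapular and the subscapular SVF by the test of the difference itself (limma over 24 libraries, Benjamini-Hochberg adjustment). Values are the interscapular minus the subscapular log2 change. HBZ, a globin, differed by -4.64 (adjusted p = 0.0386) and lost the call in 8 of 12 fits without 1 library (adjusted p up to 0.0974) and with the replicate block (adjusted p = 0.0631). EEF1G, an elongation factor whose symbol is shared by 2 identifiers, differed by -4.58 (adjusted p = 0.0316) and lost the call in 8 of 12 fits without 1 library (adjusted p up to 0.0815) and with the replicate block (adjusted p = 0.0517). RPS6, a ribosomal protein, differed by -3.29 (adjusted p = 0.0474) and lost the call in 11 of 12 fits without 1 library (adjusted p up to 0.125) and with the replicate block (adjusted p = 0.0673). SNCG, a synuclein, differed by -2.79 (adjusted p = 0.0469) and lost the call in 7 of 12 fits without 1 library (adjusted p up to 0.118) and with the replicate block (adjusted p = 0.0631). PLAUR, the urokinase receptor, differed by 2.82 (adjusted p = 0.000295) and was called in all 12 fits without 1 library (adjusted p at most 0.00194) and with the replicate block (adjusted p = 0.000984). RN18S, a ribosomal RNA entry, differed by 2.27 (adjusted p = 0.0118) and was called in all 12 fits without 1 library (adjusted p at most 0.0436) and with the replicate block (adjusted p = 0.0311). CARD19, a CARD domain protein, differed by 1.75 (adjusted p = 0.0422) and lost the call in 9 of 12 fits without 1 library (adjusted p up to 0.118) and with the replicate block (adjusted p = 0.0631). CEBPB, an adipogenic transcription factor, differed by 1.68 (adjusted p = 0.0474) and lost the call in 10 of 12 fits without 1 library (adjusted p up to 0.128) and with the replicate block (adjusted p = 0.0631). EEF1G was listed at 0, 9.91 and 0 in the subscapular 3-week libraries, and 24.2, 45.01 and 53.7 in the 6-week ones.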

How the results depend on the processing

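The count of 1087 genes that differed between 6 and 3 weeks was 672 on values as deposited, 2039 with array weights, 689 with only the 6 libraries compared, 592 with the libraries of both depots in the fit, 219 when calls also needed a change of 1 or more on the log2 scale, and 215 to 646 when 1 library was left out. It stayed between 728 and 1087 under the other 7 alternatives, with 728 for the replicate block, which pairs the libraries by number. The count of 50 genes that differed between depots was 87 with a pseudocount of 0.1, 9322 on values as deposited, 10 with array weights, 10 with the replicate block, and 6 to 1031 when 1 library was left out. The cause was not tested. Over the 136 genes chosen by the naming rules and all alternatives, 1863 of 2392 values kept their side of the threshold, 524 lost the call and 5 gained one. With a call in the main fit or the alternative, 0 changed direction. Genes without a call in either could change sign and still counted as kept. Examples are S100A8, with log2 fold changes from -1.277 to 0.569, and GATA2, from -0.359 to 0.216. The replicate block ended 27 of these calls, given beside each such gene the text describes, and 6 of the 8 named differences between depots, and changed no other named call. Depth in reads is not given in the sources used here, so no counting interval was computed, and 3-week replicate 3 had the lowest relative depth, 0.624.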
